A study of Oryza sativa with 24 samples.

Results

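Bicellular pollen (BCP) was compared with uninucleate microspores (UNMs) of rice, Oryza sativa ssp. japonica cultivar Zhonghua 10, on Affymetrix Rice Genome Arrays. The comparison took the 3 BCP and the 3 UNM arrays of a series of 24, which also held 3 arrays each of tricellular pollen (TCP), mature and germinated pollen, callus, leaf and root, and it covered all 57258 probe sets that were not array controls. Both stages came from plants of this cultivar grown outdoors in the natural season, and the labels name no treatment, transgene or mutation. Anthers were broken in cold mannitol, and microspores were gathered by filtering and spinning, whereas BCP was taken from a layer of a Percoll step gradient, so stage and isolation method cannot be told apart. The BCP label described grains from before as well as after a pollen mitosis, and the study counted a smaller share of grains at the right stage in BCP than in UNMs, so each BCP value is that of a mixture. The study described its replicates as independent and biological.

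A uninucleate microspore is the haploid cell released from the tetrad after meiosis. It enlarges, forms a vacuole and moves its nucleus to the wall. Pollen mitosis I then divides it unequally into a large vegetative cell, which stores starch and later grows the pollen tube, and a small generative cell inside it, which divides again at pollen mitosis II to give the sperm cells. Around both stages the tapetum, a secretory layer of the anther, supplies wall material and degenerates. The comparison therefore asked which pathways and gene families differed between the cell before this division and the grain after it.

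The values are signal intensities, on a linear scale and in arbitrary units. They were compared as log2(signal + 50), so that the fold changes given below understate those of genes with low signals. A gene rose or fell where the limma fit gave a Benjamini-Hochberg adjusted p under 0.05 over all probe sets tested and a change of at least 2-fold (1 on the log2 scale). By this rule 2910 probe sets (6.11% of the 47589 tested) rose in BCP and 3899 (8.19%) fell. Scaled to the 9 hybridisation control probe sets instead, 2348 rose and 6552 fell, a share of rises of 26.4% against 42.7%, and the median change of all probe sets was -0.21 instead of -0.01, so directions below are relative to the signal of the whole array. With 1 probe set for each of 17496 RefSeq genes, 1544 genes (8.82%) rose, 2409 (13.8%) fell and the median change was -0.12. These values are the background for every list of RefSeq genes below.

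Arrays of a stage resembled each other more than those of the other stage, with a Pearson r of log2 signals of 0.952 to 0.967 among BCP, 0.966 to 0.981 among UNMs and 0.867 to 0.906 between the stages. Actin signal at the 3' end of the transcript over that at the 5' end, a sign of RNA or labelling quality, was 1.78, 1.2 and 1.39 on the BCP arrays, below the 3.41, 2.11 and 2.69 of the UNM arrays, whereas the like ratios of GAPDH and cyclophilin overlapped. The summed signal of 11 tapetum genes was 10590.0 to 10832.6 in BCP, against 25255.5 to 28065.2 in UNMs, and 4 of the 11 fell, among them RTS, CP1 and C6. Most of this difference lay in RTS, with means of 1106.8 in BCP and 12695.3 in UNMs. CYP703A3, EAT1, MTR1 and TDR were above 0 (log2 changes of 0.83, 0.32, 0.23 and 0.03) and did not pass. That of 18 meiosis and recombination genes was 11502.1 to 11774.7 in BCP, against 13946.7 to 15322.2 in UNMs, with 3 of 17 tested falling (among them PAIR1 and PAIR2). The summed signal of 18 genes of green tissue was 10063.0 to 11851.0 in BCP, against 6314.3 to 6620.8 in UNMs, and of these genes PSAG and CHLD rose and CAB2R and OEE3 fell. The higher BCP sum rested on CHLD, a subunit of magnesium chelatase: the other 17 genes summed to 2866.8 to 3452.4 in BCP, against 3825.4 to 4253.1 in UNMs, and the median change of the 16 tested was -0.37. These sums did not overlap between the stages, and what part RNA of other cells had in any gene list was not tested. In bulk samples of this kind, fewer cells of a type and less RNA of a gene in each cell cannot be told apart.

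In all, 72 gene lists with 1600 tested genes were described, of which 164 genes rose and 251 fell, beside the 8.82% and 13.8% of all genes. In 51 of the lists some members rose while others fell, in 16 members only fell, in 1 (magnesium transporters) members only rose, and in 4 (cytosolic ribosomal proteins, proteasome subunits, laccases and growth-regulating factors) no member passed. Most lists therefore held members that rose beside members that fell. Lists with the shares of all genes could do so as well, and a difference from those shares was not tested.

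**Figure D1:**
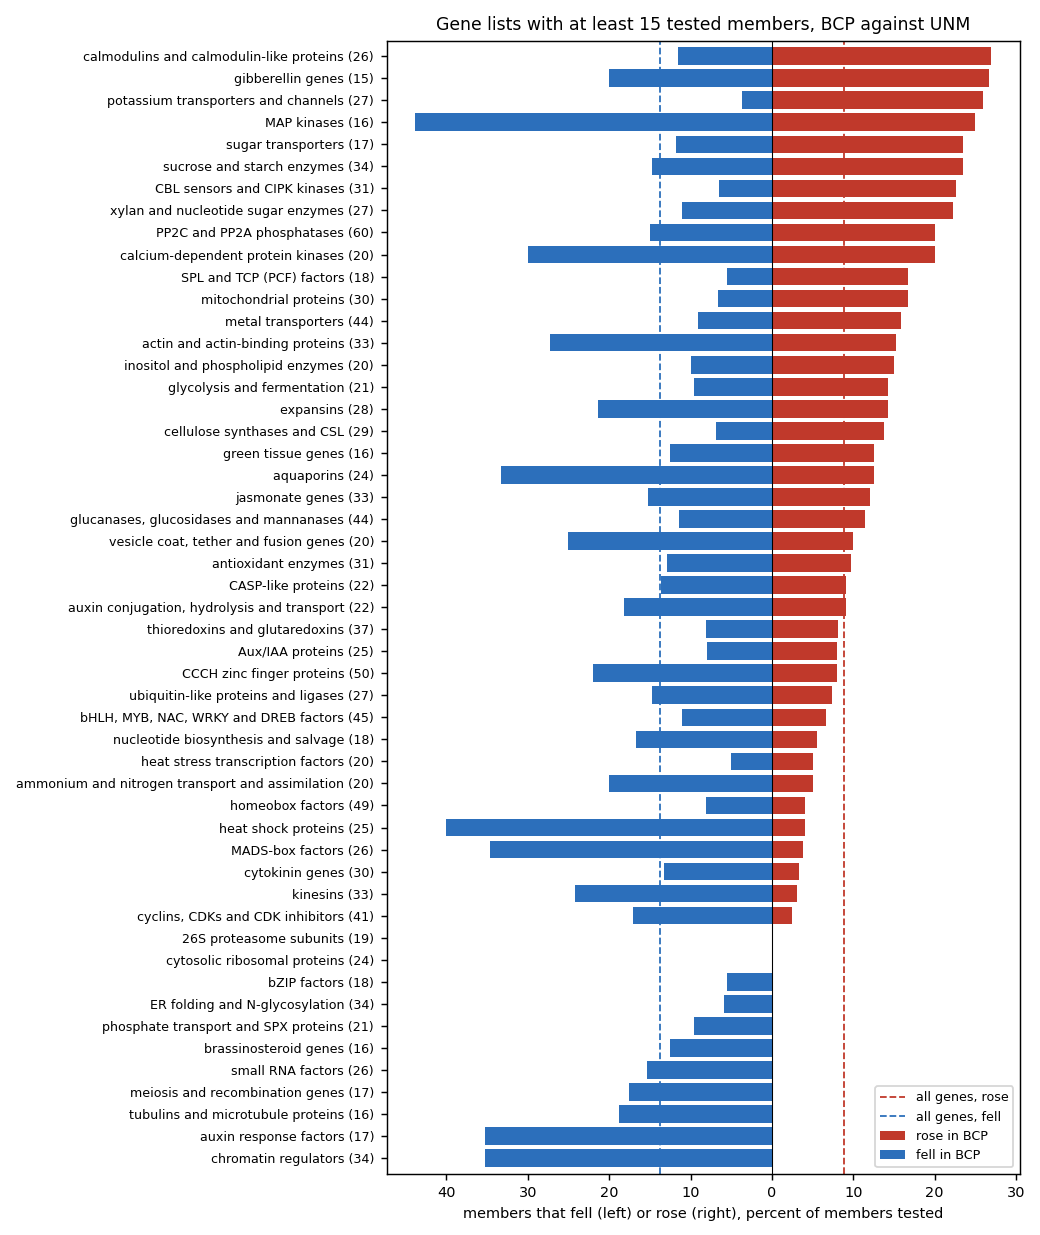
Each bar gives the percent of a list's tested members (number in parentheses) that rose in BCP (red, right) or fell in BCP (blue, left), for lists with at least 15 tested members, and the dashed lines give the shares over all 17496 genes, 8.82% and 13.8%. Chromatin regulators and auxin response factors had falls and no rise, and potassium transporters had 7 rises and 1 fall. MAP kinases lay past both lines, as did several other lists.

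Of 34 chromatin regulators with a RefSeq name 12 fell (35.3%), none rose, and the median change was -0.95. Other chromatin families held rises: among the pollen-preferential probe sets that the study listed, 4 of 20 SET, 3 of 18 PHD and 2 of 18 SNF2 probe sets rose, and 3, 4 and 4 fell. Of all probe sets 6.11% rose and 8.19% fell. The study selected its probe sets for high pollen signal on these same arrays, so they are not independent evidence. Protein arginine methyltransferases, which methylate histones and RNA-binding proteins, fell in 4 of 6 members (median -1.41): PRMT10, PRMT3, PRMT5 and PRMT1. The signal of PRMT10 was 1151, 744.1 and 1318 in BCP, against 7266, 7944 and 7858 in UNMs (log2 change -2.82, SE 0.48, adjusted p = 0.00017). That of PRMT1 was 4950.4, 4244 and 4741 in BCP, against 13142, 11931 and 11094 in UNMs (log2 change -1.37, SE 0.22, adjusted p = 0.0001). The BCP and UNM arrays did not overlap for either gene, and both were lower again in TCP (means of 153.9 and 412.1). PRMT5, at -1.46, lost its call without BCP replicate 2 (log2 change -1.37), without UNM replicate 1 and without UNM replicate 3 (-1.44 in both).

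Of the DNA methyltransferase genes given here MET1B fell. MET1B, a maintenance methyltransferase that copies CG methylation after replication, had signals of 446.6, 410.3 and 660.4 in BCP, against 2351, 2239 and 2862 in UNMs (log2 change -2.21, SE 0.26, adjusted p = 2e-06), with every BCP array below every UNM array. Its paralogue MET1A did not pass (log2 change 0.42, SE 0.41, adjusted p = 0.64), and neither did DRM2 (log2 change -0.30, SE 0.26, adjusted p = 0.57) or CMT3 (log2 change -1.44, SE 0.57, adjusted p = 0.093), although the signals of CMT3, 29.2, 98.4 and 111.7 in BCP, against 316.2, 248.7 and 299.3 in UNMs, did not overlap. Differences between these genes were not tested. Genes for the chromatin assembly factor that places histones on new DNA fell as well. FAS2 had signals of 480.7, 555.9 and 556.2 in BCP, against 1745, 1892 and 1758.5 in UNMs (log2 change -1.67, SE 0.19, adjusted p = 1.3e-06), and MSI1 had 5358, 5717 and 5889.8 in BCP, against 14245, 11038 and 12283 in UNMs (log2 change -1.13, SE 0.20, adjusted p = 0.00018), both without overlap. On another probe set MSI1 did not pass (log2 change -0.97, SE 0.19). The histone acetyltransferase gene HATB changed by -1.94 and the histone deacetylase gene HDA703 by -1.98. SSRP1-A, a FACT subunit that opens nucleosomes for polymerases, fell (-1.12), whereas SSRP1-B did not pass (log2 change -0.21, SE 0.22, adjusted p = 0.67). PRMT1, PRMT3, PRMT5, FAS2, MSI1 and the smaller falls given here lie beyond the 3 largest of the list and were chosen after their values were seen.

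**Figure D2:**
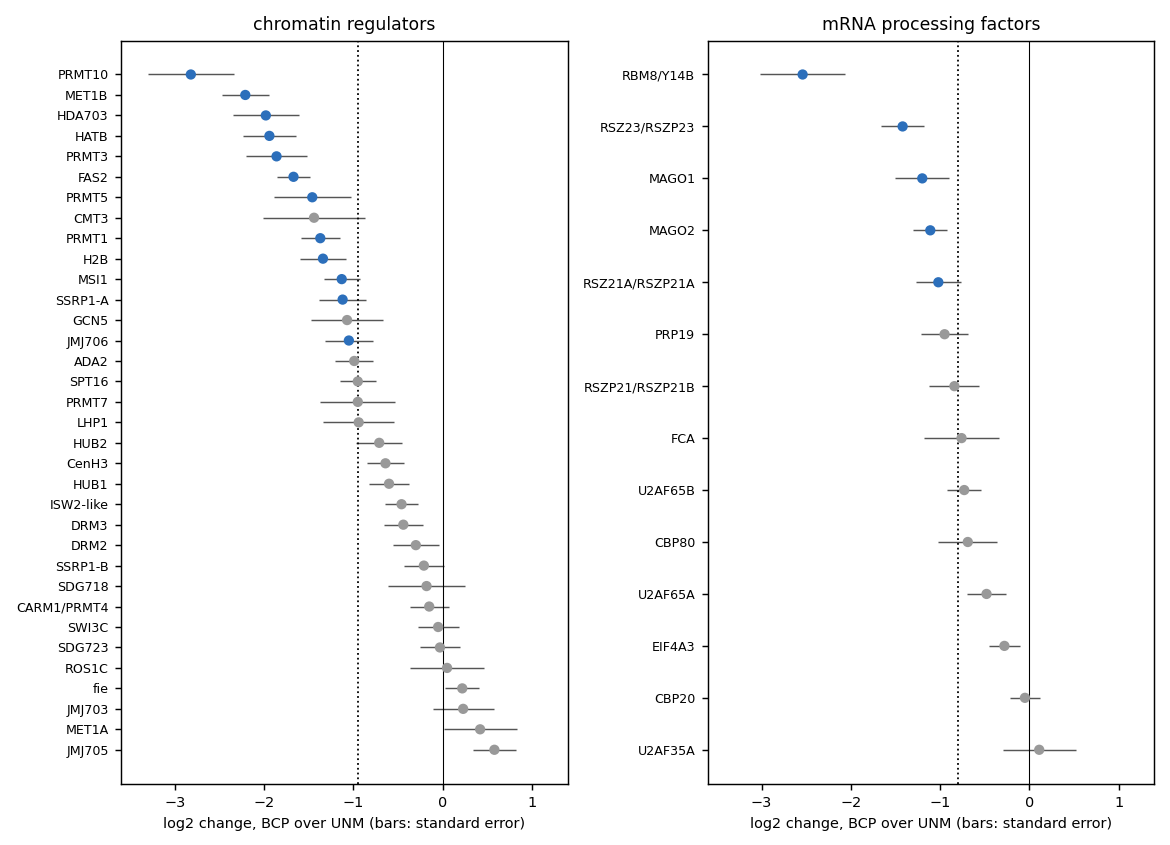
Points give the log2 change (BCP over UNM) with its standard error of all 34 tested chromatin regulators and all 14 mRNA processing factors, blue where the gene fell and grey where it did not pass, with the dotted line at the list's median (-0.95 and -0.80). No member of either list rose.

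Of 14 mRNA processing factors 5 fell (35.7%, beside 13.8% of all genes) and none rose (median -0.80), and 3 of the 5 encode the exon junction complex, which marks spliced transcripts: RBM8 (Y14B), MAGO1 and MAGO2. The signal of RBM8 was 655.1, 488.3 and 809.6 in BCP, against 3622, 4346 and 3952.5 in UNMs (log2 change -2.54, SE 0.48, adjusted p = 0.00043), and that of MAGO1 was 1320.3, 1098 and 968.9 in BCP, against 2945, 2750.5 and 2258 in UNMs (log2 change -1.20, SE 0.30, adjusted p = 0.0062). Neither overlapped between the stages, while EIF4A3, another gene of the same complex, did not pass (log2 change -0.28, SE 0.17, adjusted p = 0.32). The splicing factor RSZ23 fell by 1.42 on the log2 scale. Among 26 small RNA factors 4 fell and none rose (median -0.49), and their 15.4% of falls was near the 13.8% of all genes. Without BCP replicate 2, 1 of them rose. DRB5, a double-stranded RNA-binding partner of Dicer, had signals of 126, 96 and 193.7 in BCP, against 1011.5, 743.5 and 737.8 in UNMs (log2 change -2.24, SE 0.39, adjusted p = 0.00022), DCL4 had 205, 247.7 and 306.3 in BCP, against 1154, 1047 and 1362 in UNMs (log2 change -2.04, SE 0.46, adjusted p = 0.0027), and neither overlapped. DCL2A fell by 1.76, on a probe set that may read near-identical copies, and did not pass on another such set (log2 change -1.01, SE 0.44). DCL4 was at a mean of 94.6 and DCL2A of 921.6 in TCP, neither passing the test of TCP against BCP.

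Of 41 cyclins, cyclin-dependent kinases and their inhibitors 7 fell and 1 rose (2 without BCP replicate 3), and the 17.1% that fell was near the 13.8% of all genes. Of 33 kinesins 8 fell (24.2%) and 1 rose. KRP5, an inhibitor of cyclin-dependent kinases, had signals of 103.4, 112.3 and 173.8 in BCP, against 2428, 2521 and 2968 in UNMs (log2 change -3.92, SE 0.23, adjusted p = 6.9e-11), and its mean in TCP was 25.4. The mitotic cyclin CYCB1-1 had 338.5, 229.6 and 507.3 in BCP, against 2483, 2129 and 2272 in UNMs (log2 change -2.58, SE 0.42, adjusted p = 0.00011). CYCD3-2, a D-type cyclin of the step into the cycle, was the 1 that rose, with 278.5, 301.1 and 260.2 in BCP, against 18.2, 20.3 and 4.9 in UNMs (log2 change 2.36, SE 0.37, adjusted p = 5.8e-05). None of these genes overlapped between the stages. Of the kinesins, motor proteins that walk on microtubules, KIN10A changed by -3.50, KIN14H by -3.32 and KIN12C by -2.46, whereas KIN7F rose, with signals of 765.8, 936.2 and 837.1 in BCP, against 173.3, 213.3 and 185.5 in UNMs (log2 change 1.90, SE 0.40, adjusted p = 0.0015). BCP replicate 2 was the lowest BCP array for KIN10A (187.4, 17.3 and 175.4), for KIN14H (324.4, 184.6 and 335.2) and for KIN12C (278.1, 98.1 and 215.6). The tubulin genes TUB1, TUB4 and TUB2 fell, by 2.47, 2.34 and 2.11, and were the 3 that fell out of 16 tubulins and microtubule proteins (18.8%, again near the share of all genes).

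None of 24 cytosolic ribosomal protein genes passed, their changes ran from -0.39 to 0.77, and their median was -0.09, close to the -0.12 of all genes. None of 19 proteasome subunits passed either (median -0.20), although 4 had an adjusted p under 0.05 at changes of less than 2-fold, and 1 fell without BCP replicate 3, UNM replicate 1 or UNM replicate 3. Of 27 ubiquitin-like proteins and ligases 2 rose and 4 fell (7.41% and 14.8%), near the shares of all genes, and the falls were 1 without BCP replicate 1, BCP replicate 2 or UNM replicate 3 and 2 without UNM replicate 1. Under quantile normalization 3 ribosomal and 4 proteasome genes fell. In the step to TCP, by contrast, 19 of the 24 ribosomal genes fell, beside 22.6% of all genes that fell in TCP against BCP. That second comparison shares the BCP arrays, and its values are set beside the first only as a description. Of 11 translation factors and aminoacyl-tRNA synthetases 2 fell, or 1 without any 1 of the 6 arrays, and LysRS had signals of 6069.6, 5219.6 and 5775 in BCP, against 15153.5, 13770.5 and 12579 in UNMs (log2 change -1.27, SE 0.34, adjusted p = 0.0091).

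Of 25 heat shock proteins 10 fell (40.0%, beside 13.8% of all genes) and 1 rose (median -0.86). With an offset of 200 the falls were 6 (median -0.40), and scaled to the poly-A controls they were 4 of 24 (median -1.04). The small heat shock proteins, which hold unfolding proteins in solution, were 19 of the 25 and 8 of the 10. HSP18.1 had signals of 283.6, 65.3 and 181.2 in BCP, against 2999, 3967 and 3067 in UNMs (log2 change -4.02, SE 0.53, adjusted p = 7.3e-06). CLPB1 (HSP101), the disaggregase of the cytosol, had 166.1, 27.6 and 185.8 in BCP, against 714.1, 715.2 and 667.6 in UNMs (log2 change -2.24, SE 0.43, adjusted p = 0.00062). Both were lower on every BCP array, with BCP replicate 2 the lowest. CLPB-C (CLPB2), a plastid relative of CLPB1, was the member that rose (log2 change 1.10, SE 0.22, adjusted p = 0.00098), a call lost under the scaling to hybridisation controls. Among 34 genes of folding and glycosylation in the endoplasmic reticulum 2 fell (1 without BCP replicate 2), and BIP4 had signals of 9.6, 80.8 and 51.5 in BCP, against 592.4, 1889.8 and 1219 in UNMs (log2 change -3.65, SE 0.66, adjusted p = 0.00031).

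Genes for mitochondrial proteins were mostly higher in BCP, in most cases by less than 2-fold. Of 30 tested 5 rose and 2 fell, 19 had an adjusted p under 0.05 at any size, 23 were above 0 and the median was 0.70. All 8 tested subunits of succinate dehydrogenase, which feeds electrons from succinate into the respiratory chain, had changes between 0.68 and 1.13 with an adjusted p under 0.05, and 2 of them passed 2-fold. These are the values of 1 probe set a gene: of the 3 other sets of SDH2-1, the brightest rose by 1.06 (SE 0.21) and the others, at 0.15 and -0.79, did not pass. SDH4 had signals of 17943, 19098 and 16374 in BCP, against 8677, 7965 and 8175 in UNMs (log2 change 1.10, SE 0.20, adjusted p = 0.00027), and SDH3-1 had 11305, 11457.5 and 9617 in BCP, against 5007, 4757 and 4903 in UNMs (log2 change 1.13, SE 0.21, adjusted p = 0.00043). The BCP arrays lay above the UNM arrays for both, and the TCP means were 22601 and 11110.1. Scaled to the hybridisation controls the 2 genes changed by 0.81 and 0.84, below 2-fold. ETFA, which passes electrons from fatty and amino acid oxidation, rose as well (log2 change 1.53, SE 0.20, adjusted p = 7.8e-06). AOX1, the alternative oxidase, went the other way, with 2096, 2209 and 2481 in BCP, against 7152, 11572 and 9230.2 in UNMs (log2 change -1.99, SE 0.21, adjusted p = 4.5e-07). Scaled to the hybridisation controls the median of the list was 0.41 and 2 genes rose, and under quantile normalization it was 0.74 and 10 rose. Succinate dehydrogenase was singled out after its values were seen.

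Several pairs of related genes in glycolysis and neighbouring steps changed in opposite directions. Each pair was formed from a member that rose and a member that fell, so the opposite directions follow from the choice. Of 21 genes of glycolysis and fermentation 3 rose and 2 fell, not far from the 8.82% and 13.8% of all genes. The fructose-bisphosphate aldolase gene FBA2 had signals of 12316, 11239 and 10827 in BCP, against 96.7, 266.7 and 189.6 in UNMs (log2 change 5.69, SE 0.26, adjusted p = 2.3e-12), while FBA3 had 8368, 9589 and 10093 in BCP, against 29980.3, 20260.5 and 22575.5 in UNMs (log2 change -1.36, SE 0.22, adjusted p = 0.00011). Pyruvate decarboxylase, the first step of ethanol fermentation, showed the same kind of pair. PDC3 had 2477, 3514.5 and 2501 in BCP, against 601.1, 791 and 442.4 in UNMs (log2 change 2.14, SE 0.32, adjusted p = 3.2e-05), while PDC2 had 4194.5, 3522.5 and 4027 in BCP, against 16383, 14653 and 13833 in UNMs (log2 change -1.92, SE 0.31, adjusted p = 7.7e-05). The mitochondrial porins made another such pair, with VDAC3 at 16416, 17893 and 13743 in BCP, against 4882, 6182 and 5766 in UNMs (log2 change 1.5, SE 0.29, adjusted p = 0.00056) and VDAC2 at 8615, 6337 and 7277.5 in BCP, against 21946.5, 17816 and 18203.5 in UNMs (log2 change -1.38, SE 0.29, adjusted p = 0.0012). In none of the 6 genes did the BCP and UNM arrays overlap. In TCP the 3 genes that fell were lower still, at means of 3738, 1156.5 and 1789.9, and FBA2 reached 69876 and PDC3 7178. HXK5, a hexokinase, rose to 25635, 21485 and 21478 in BCP, against 9754, 9003 and 9140.0 in UNMs, a call not kept under the scaling to hybridisation controls.

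**Figure D3:**
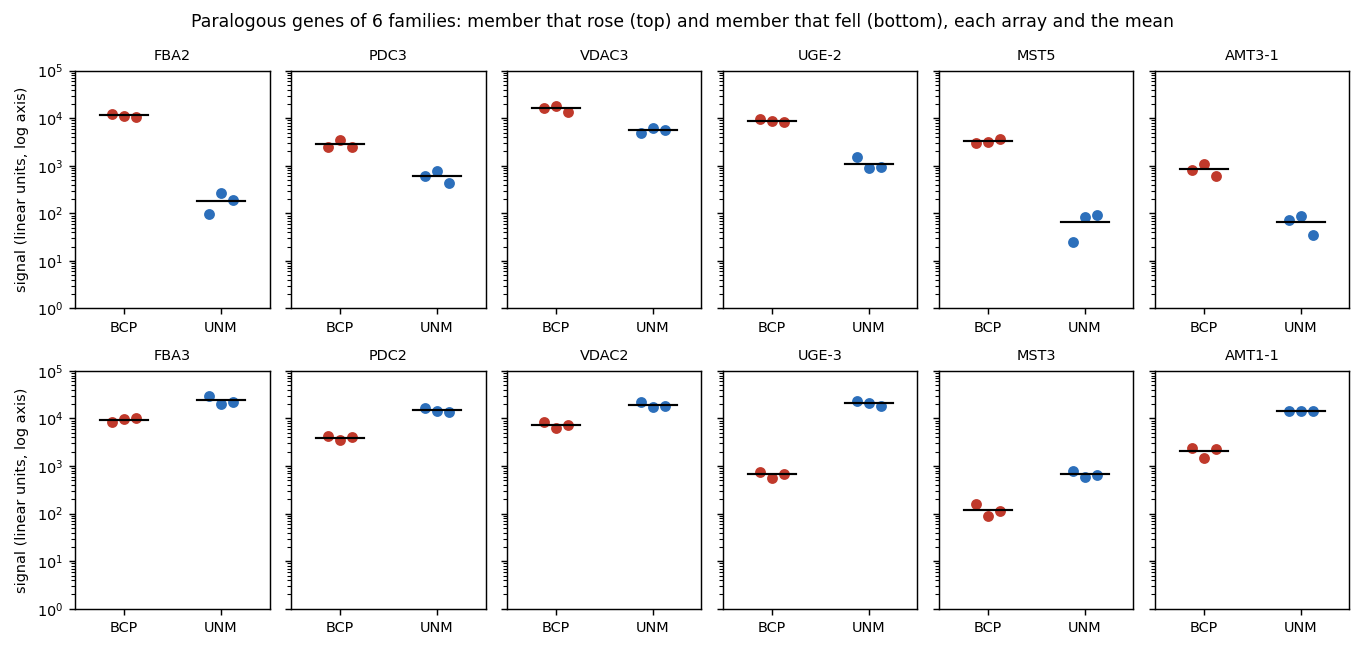
Signals on each array (points, linear units on a log axis) and their mean (line) in BCP (left of each panel) and UNMs (right) for a member that rose (top row) and a member that fell (bottom row) of aldolase, pyruvate decarboxylase, porin, UDP-glucose epimerase, monosaccharide transporter and ammonium transporter genes. The members were chosen for these directions. No gene overlapped between the stages. Levels of different probe sets cannot be set against each other.

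Most of the starch enzymes examined rose. Of 10 enzymes of starch synthesis and turnover 6 rose, 1 fell and the median was 1.41, beside 8.82% and 13.8% of all genes. These 10 are a part of the list of 34 sucrose and starch genes, which had 8 rises and 5 falls, and not a list of their own. GBSS1, the granule-bound synthase that makes amylose, had signals of 17279, 15836 and 12988 in BCP, against 834.2, 482.7 and 626.4 in UNMs (log2 change 4.49, SE 0.35, adjusted p = 4.4e-09). AGPS2, the small subunit of the enzyme that makes ADP-glucose, had 9399, 10236 and 8587 in BCP, against 2031, 2133.5 and 2122.5 in UNMs (log2 change 2.14, SE 0.26, adjusted p = 2.3e-06). For both genes each BCP array was far above each UNM array, and in TCP the means were 9096 and 5087, a difference from BCP that did not pass. Of the 5 probe sets for GBSS1, 1 did not pass (log2 change 0.66). Enzymes that turn starch over rose at the same stage. DPE1, the plastid enzyme that recycles short glucans, had 2983, 4006 and 4332 in BCP, against 164.3, 161.9 and 162.5 in UNMs (log2 change 4.15, SE 0.20, adjusted p = 3.8e-12). GWD3 (phosphoglucan water dikinase, which primes granules for breakdown) had 5282, 5845.5 and 5375 in BCP, against 838, 1032 and 1011 in UNMs (log2 change 2.46, SE 0.21, adjusted p = 2.2e-08), and DPE2, the cytosolic glucanotransferase that uses maltose, had 36154, 35754 and 28577 in BCP, against 12108, 10141 and 12342 in UNMs (log2 change 1.53, SE 0.25, adjusted p = 9.9e-05). No array overlapped for these 3. In TCP DPE1 and GWD3 rose further, to means of 17099 and 21390.2, and DPE2 had a mean of 67484, which did not pass against BCP. The starch synthase ALK (SSII-3) was the member that fell (log2 change -1.25, SE 0.38, adjusted p = 0.024), but not in 5 of the 6 fits without 1 array (-1.10 without BCP replicate 3, for instance).

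Among the sucrose enzymes the changes were mixed, and the whole list of 34 sucrose and starch genes had 8 rises and 5 falls. Sucrose phosphate synthase genes split, with SPS2 at 1.52 and SPS4 (SPS8) at -2.48. Sus2, a sucrose synthase, and CINV1, a cytosolic invertase, fell by 1.76 and 2.24. NIN3, another neutral invertase, fell in BCP and was far higher at the next stage, with signals of 319.5, 261.5 and 434.8 in BCP, against 929.3, 1302 and 1185 in UNMs (log2 change -1.62, SE 0.23, adjusted p = 2.3e-05) and a TCP mean of 16565. The sugar carriers followed the same mixed course. MST5, a monosaccharide transporter, had 2981, 3196 and 3728 in BCP, against 24.7, 84.9 and 90.5 in UNMs (log2 change 4.89, SE 0.29, adjusted p = 7.4e-11), and MST3 had 160.5, 89.7 and 113 in BCP, against 797.9, 588.5 and 644.5 in UNMs (log2 change -2.10, SE 0.36, adjusted p = 0.00019). SUT1, the phloem sucrose transporter, had 813.3, 578.4 and 711.8 in BCP, against 190.8, 174.4 and 26.8 in UNMs (log2 change 2.21, SE 0.52, adjusted p = 0.0035). All 3 were without overlap, and SUT1 and MST5 had TCP means of 7167 and 21338. Of the 17 sugar transporters 4 rose and 2 fell.

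Genes for the early steps of gibberellin synthesis rose. Gibberellins are made from geranylgeranyl diphosphate by CPS, KS, KO and KAO in that order, before the 20-oxidases and 3-oxidases give the active forms. CPS1, the first of them, had signals of 17929, 17755 and 16148.5 in BCP, against 3495, 3736 and 3293 in UNMs (log2 change 2.28, SE 0.23, adjusted p = 2.6e-07). The next, ks1, had 3856, 3878 and 4351 in BCP, against 1487.5, 1475 and 1129 in UNMs (log2 change 1.54, SE 0.33, adjusted p = 0.0016). These BCP signals all lay above the UNM signals. D35 (KO1), the ent-kaurene oxidase, had 8142, 7966 and 7503 in BCP, against 3752, 3987 and 3610.4 in UNMs (log2 change 1.05, SE 0.26, adjusted p = 0.0052), and KAO had 33191, 32810.1 and 25234 in BCP, against 5721, 6097 and 6233.5 in UNMs (log2 change 2.32, SE 0.22, adjusted p = 9.7e-08). There too no array overlapped, although D35 changed by 0.76 and lost its call under the scaling to hybridisation controls. The probe sets of ks1 and D35 may read near-identical copies, and D35 was singled out after its values were seen. The later enzymes did not pass, with GA20OX2 at log2 change 0.25, SE 0.38, adjusted p = 0.8 and GA20OX3 at log2 change 0.63, SE 0.25, adjusted p = 0.095.

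The 3 falls among the 15 gibberellin genes tested were of genes that remove gibberellin or restrain its response. EUI, which deactivates gibberellins, had signals of 81.4, 69.3 and 9.5 in BCP, against 268.1, 378.4 and 337.7 in UNMs (log2 change -1.94, SE 0.48, adjusted p = 0.0057). SPY, a negative regulator of the response, had 248, 496 and 370.8 in BCP, against 1088.5, 992.2 and 1086 in UNMs (log2 change -1.43, SE 0.36, adjusted p = 0.0061). SLR1, the DELLA repressor, had 17.9, 16.2 and 34 in BCP, against 121.7, 116.3 and 145.4 in UNMs (log2 change -1.30, SE 0.39, adjusted p = 0.022). For all 3 the BCP arrays were the lower ones. SLR1 lost its call without BCP replicate 1 (log2 change -1.25), BCP replicate 2 (-1.23), UNM replicate 1 (-1.32) or UNM replicate 3 (-1.23), and SPY lost it under quantile normalization. The receptor gene GID1 did not pass (log2 change -0.33, SE 0.24, adjusted p = 0.47). Over the 15 gibberellin genes tested 4 rose and 3 fell, beside 8.82% and 13.8% of all genes. Their median was 0.11, or -0.06 when scaled to the hybridisation controls. In TCP the mean of CPS1 was 34761 and that of KAO 41189, of which only the first passed as a further rise.

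**Figure D4:**
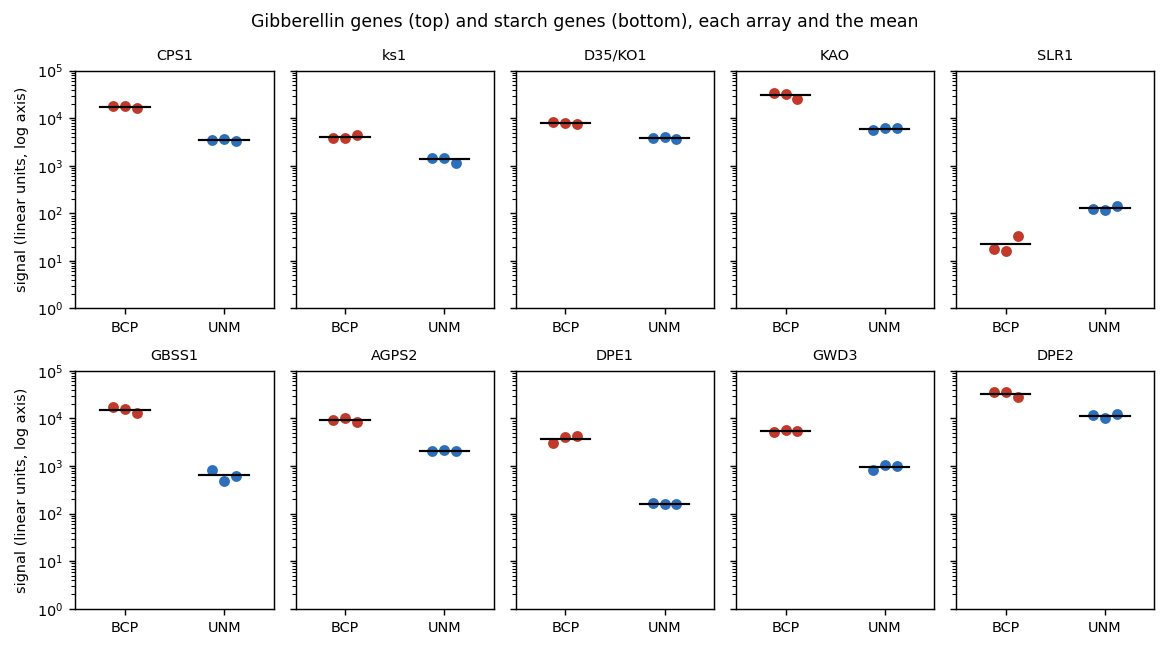
Signals on each array (points; linear units on a log axis) and their mean (line) in BCP (left of each panel) and UNMs (right), for 5 gibberellin genes (top) and 5 starch genes (bottom). CPS1, ks1, D35, KAO and all 5 starch genes were higher on every BCP array, and SLR1 was lower on every BCP array.

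Of 17 auxin response factors, the DNA-binding proteins of auxin signalling, 6 fell (35.3%), none rose and 16 were below 0 (median -0.51). ARF13 had signals of 261.3, 197.9 and 347.5 in BCP, against 1891, 2027 and 1897 in UNMs (log2 change -2.67, SE 0.33, adjusted p = 3.7e-06), without overlap, and a mean of 81.8 in TCP. Of 25 Aux/IAA repressors 2 rose and 2 fell, with IAA15 at 2.17 and IAA17 at -1.63. IAA23 did not pass (0.89), but rose by 1.62 on a brighter probe set, where the BCP arrays had 311.5, 335.5 and 269.0 and lay above all UNM arrays. ILL2, a gene named for hydrolases of auxin conjugates, fell and then stood at another level altogether in TCP, with 159.1, 109.9 and 139.2 in BCP, against 545.8, 489 and 596.1 in UNMs (log2 change -1.68, SE 0.18, adjusted p = 6.7e-07) and a TCP mean of 29214, on a probe set that may read near-identical copies.

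Jasmonate genes went both ways, with 4 rises and 5 falls among 33. JAR1 (also listed as GH3-5), which joins jasmonate to isoleucine, had 1344, 1458 and 1224 in BCP, against 333.6, 282.5 and 328.2 in UNMs (log2 change 1.93, SE 0.30, adjusted p = 5.9e-05). OPR13, a gene named for oxophytodienoate reductases, had 2847, 2795.5 and 3231 in BCP, against 947.8, 698.9 and 760.5 in UNMs (log2 change 1.83, SE 0.35, adjusted p = 0.00059). Neither overlapped. Of 12 JAZ repressors JAZ12 rose (3.10) while JAZ7 and JAZ13 fell (-2.63 and -2.15). Of the ethylene receptors ERS1 fell, with 180.7, 14.4 and 194.3 in BCP, against 930.2, 783.8 and 968.6 in UNMs (log2 change -2.61, SE 0.45, adjusted p = 0.00019), and ETR4 rose, with 352, 466.2 and 330.5 in BCP, against 133.1, 99.6 and 14.6 in UNMs (log2 change 1.83, SE 0.35, adjusted p = 0.00054). Of 30 cytokinin genes 4 fell and 1 rose, and of 16 brassinosteroid genes only the phosphatase genes BSL1 and BSL2 passed, both falling (log2 changes of -2.53 and -1.38). On another probe set BSL2 did not pass (log2 change -0.25, SE 0.26). Without UNM replicate 1 another brassinosteroid gene rose. GSK1, a kinase of that pathway, did not pass on the dim probe set used (0.46) but rose by 1.38 on a brighter one, with 2309, 1868 and 2306.5 in BCP, against 673.1, 814.2 and 920.3 in UNMs.

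Of 27 genes for xylan and nucleotide sugars 6 rose (22.2%) and 3 fell (11.1%), with opposite changes among UDP-glucose epimerases, which interconvert UDP-glucose and UDP-galactose. UGE-3 had signals of 753.2, 568 and 688.1 in BCP, against 23869, 21174 and 18647 in UNMs (log2 change -4.89, SE 0.22, adjusted p = 2.3e-12), whereas UGE-2 had 9525, 8881 and 8243 in BCP, against 1496, 911.4 and 934.3 in UNMs (log2 change 2.97, SE 0.20, adjusted p = 4.1e-10) and UGE-4 had 5498, 5365 and 5295 in BCP, against 1369, 1177 and 1257 in UNMs (log2 change 2.05, SE 0.39, adjusted p = 0.00054). None overlapped, and UGE-3 was still at a mean of 902 in TCP. XXT1, a xyloglucan xylosyltransferase, and GT47D rose by 2.62 and 2.58 on the log2 scale. Of 29 cellulose synthase and related genes CESA8, CESA3 and CESA1 were among 4 that rose (2.26, 1.62 and 1.37) and CSLA9, a mannan synthase, was among 2 that fell (-2.17), of which 1 fell without BCP replicate 1 or BCP replicate 3. The signal of CESA8 was 2134, 2355 and 2116 in BCP, against 390.2, 409.7 and 462.1 in UNMs.

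Wall-loosening proteins divided by member. Of 28 expansins 4 rose and 6 fell. EXPA26 had signals of 1867.5, 3340.0 and 1862 in BCP, against 18.4, 104.8 and 52.4 in UNMs (log2 change 4.49, SE 0.31, adjusted p = 6.2e-10), and EXPB17 had 34.1, 7 and 15.1 in BCP, against 586.5, 318 and 624.5 in UNMs (log2 change -2.99, SE 0.39, adjusted p = 7.2e-06), each without overlap. Of 44 glucanases, glucosidases and mannanases 5 rose and 5 fell (3 without UNM replicate 2). GLU2 rose, with 1285, 2014 and 1719.7 in BCP, against 220.8, 232.7 and 245.7 in UNMs (log2 change 2.58, SE 0.50, adjusted p = 0.00064), and MAN1, a mannanase, fell, with 42.3, 12.7 and 43 in BCP, against 690.9, 712.8 and 640.7 in UNMs (log2 change -3.17, SE 0.40, adjusted p = 4.9e-06). The lowest median of the wall lists was that of the smallest list. Of 8 lipid transfer and cuticle genes 6 fell and none rose (median -2.06). The signal of KCS20, a fatty acid elongase, was 6.7, 64.3 and 67.2 in BCP, against 430.6, 676.5 and 615.3 in UNMs (log2 change -2.75, SE 0.53, adjusted p = 0.00056), and that of LTPL1, a lipid transfer protein gene, was 143.6, 236.7 and 155 in BCP, against 826.2, 989.8 and 908.1 in UNMs (log2 change -2.09, SE 0.41, adjusted p = 0.00067). Neither overlapped. Of the 6, C6 is also a tapetum marker, with 199.8, 163.9 and 105.4 in BCP, against 1517.5, 3469.5 and 2339.7 in UNMs (log2 change -3.54, SE 0.40, adjusted p = 1.1e-06), and the summed tapetum signal given above was lower in BCP beside this list, a relation that was not tested.

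MAP kinases changed more often than all genes did in both directions, as a count and without a test. Other lists did so too, among them calcium-dependent protein kinases (4 rises and 6 falls of 20) and aquaporins (3 and 8 of 24). Of 16 MAP kinases, the last kinases of the MAP kinase cascade, 4 rose and 7 fell. MPK17 had signals of 4458, 5009 and 5095 in BCP, against 290.4, 226.2 and 267.2 in UNMs (log2 change 3.98, SE 0.19, adjusted p = 4.8e-12), and MPK3 had 2294.5, 2916 and 1913 in BCP, against 308, 287.4 and 290.4 in UNMs (log2 change 2.79, SE 0.20, adjusted p = 1.4e-09). MPK1 rose as well (log2 change 1.83, SE 0.24, adjusted p = 7e-06). MPK15 was the largest fall, with 144.8, 108.2 and 203.4 in BCP, against 895, 892.8 and 1166 in UNMs (log2 change -2.37, SE 0.23, adjusted p = 1.3e-07). No BCP array overlapped with a UNM array for any of these 4, and MPK17 reached a mean of 29708.5 in TCP. The names follow the RefSeq annotation, and other numbering schemes exist for this family. Scaled to the poly-A controls, 1 of the 7 falls passed, and without UNM replicate 3 there were 4 falls. MPK8, not among the 4 rises (0.10), rose by 1.54 on a brighter probe set.

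Calcium signalling included genes that rose in BCP and rose again in TCP. Of 31 CBL sensors and CIPK kinases, which act as calcium-dependent pairs, 7 rose and 2 fell, or 1 without any 1 of the 6 arrays. CIPK5 had signals of 1397, 1760.2 and 1417 in BCP, against 77.1, 240.7 and 106.2 in UNMs (log2 change 3.13, SE 0.26, adjusted p = 1.3e-08), and CIPK30 had 444.6, 566.5 and 504.1 in BCP, against 3.6, 95.4 and 57.3 in UNMs (log2 change 2.55, SE 0.28, adjusted p = 7.4e-07). The means in TCP were 51171 and 26242.5. Of 20 calcium-dependent protein kinases 4 rose and 6 fell. CPK2 had 229.2, 403.9 and 210.0 in BCP, against 31, 77.9 and 24.8 in UNMs (log2 change 1.80, SE 0.26, adjusted p = 2.5e-05), and CPK22 had 1202, 1897 and 1530.4 in BCP, against 203.6, 285 and 219.2 in UNMs (log2 change 2.47, SE 0.29, adjusted p = 1.9e-06), with TCP means of 46121.5 and 42694. CPK19 went the other way, with 109.3, 91 and 91.6 in BCP, against 1144, 1174 and 1202.5 in UNMs (log2 change -3.06, SE 0.19, adjusted p = 2e-10). All 5 of these kinases were without overlap. Of 26 calmodulins and calmodulin-like proteins 7 rose and 3 fell (4 rose without UNM replicate 2, and 3 rose and 4 fell under the scaling to hybridisation controls), with CML28 at 1449, 1439 and 1511.5 in BCP, against 82.5, 26.4 and 95.4 in UNMs (log2 change 3.74, SE 0.35, adjusted p = 6.7e-08) and CML20 at 504.6, 619.4 and 600.0 in BCP, against 2995, 4231 and 4133 in UNMs (log2 change -2.61, SE 0.35, adjusted p = 9.6e-06).

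Phosphatases and adaptor proteins were mixed too. Of 60 genes for PP2C and PP2A phosphatases 12 rose and 9 fell (9 and 13 under the scaling to hybridisation controls), and PP2A3, 1 of the 12 (1.42), did not pass on a brighter probe set (0.74). PP2C59 had signals of 4271, 4317 and 4315 in BCP, against 404.6, 444.4 and 453.3 in UNMs (log2 change 3.17, SE 0.19, adjusted p = 7.9e-11), and PP2C40 had 12, 111.6 and 112.9 in BCP, against 800.5, 719.9 and 829.6 in UNMs (log2 change -2.82, SE 0.44, adjusted p = 5.3e-05). Of 7 genes for 14-3-3 proteins, which bind phosphorylated partners, GF14G, GF14E and GF14B fell. GF14G had 8.2, 2.9 and 8.2 in BCP, against 504.3, 507.9 and 484.4 in UNMs (log2 change -3.28, SE 0.27, adjusted p = 7.5e-09). These groups did not overlap, and the rises of the other 2 members that passed, of which GF14D had 1.18, were not kept under the scaling to hybridisation controls, and 1 of the 2 was lost without BCP replicate 1. INO1, the enzyme that makes inositol phosphate from glucose 6-phosphate, had 1304, 849.7 and 1084 in BCP, against 8318, 7980.2 and 7981 in UNMs (log2 change -2.87, SE 0.38, adjusted p = 7.6e-06) and a mean of 161.6 in TCP, so each BCP array was below each UNM array and TCP lay lower again.

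**Figure D5:**
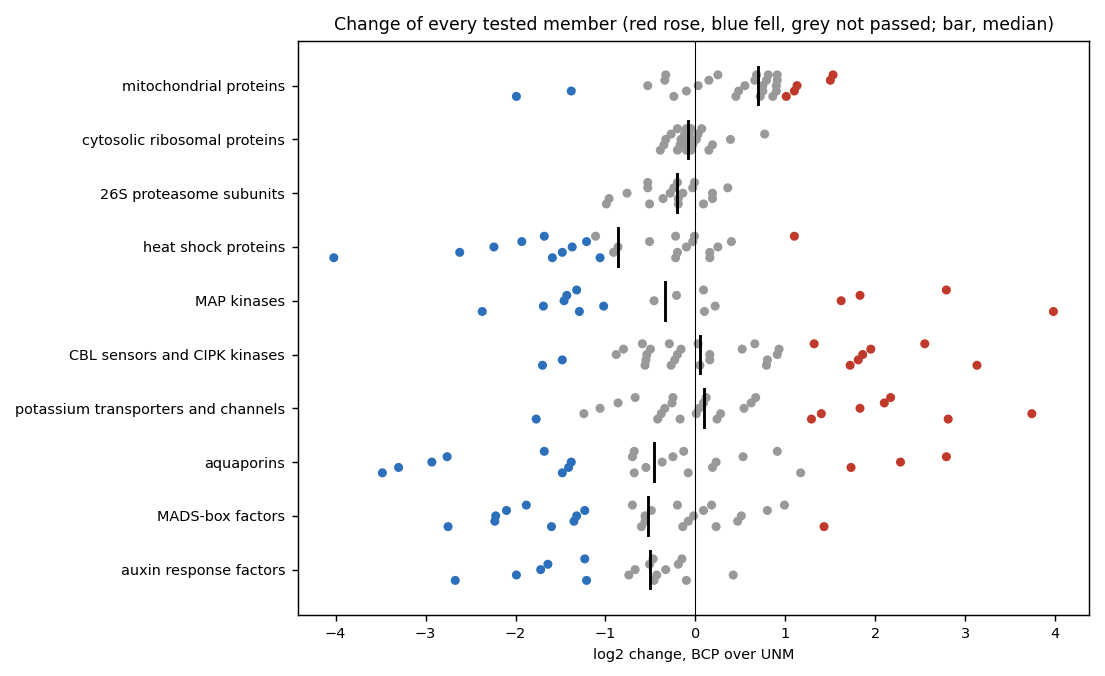
Each point is the log2 change (BCP over UNM) of 1 tested gene in 10 lists, red where it rose, blue where it fell and grey where it did not pass, with a bar at the list's median. The medians were 0.70 for mitochondrial proteins and -0.09 for ribosomal proteins, whose members lay closest together, while MAP kinases, aquaporins and potassium transporters had members far to both sides.

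Rises outnumbered falls among carriers of potassium and magnesium. Of 27 potassium transporters and channels 7 rose and 1 fell, and 5 of the 7 were among 21 HAK carriers, of which none fell (1 without BCP replicate 1). HAK10 had signals of 2407.5, 1902 and 2199.5 in BCP, against 282.5, 220.5 and 297.6 in UNMs (log2 change 2.81, SE 0.28, adjusted p = 1.7e-07), and HAK23 had 3740.0, 4521 and 3949 in BCP, against 862, 792.5 and 946.5 in UNMs (log2 change 2.17, SE 0.21, adjusted p = 8.8e-08), on a probe set that may read near-identical copies. The inward channel AKT1 was the 1 that fell, with 146.1, 219.8 and 143.5 in BCP, against 714.1, 725.1 and 639.3 in UNMs (log2 change -1.77, SE 0.39, adjusted p = 0.002). Each of these had separate groups. The median of the list was 0.09, so that the rises belonged to single members. Of 7 magnesium transporters 2 rose (1 without BCP replicate 2, BCP replicate 3 or UNM replicate 1) and all 7 were above 0, and MRS2-A had 9218, 9844 and 8590.0 in BCP, against 1814, 1807 and 1889 in UNMs (log2 change 2.29, SE 0.19, adjusted p = 1e-08). The calcium pump ACA1 rose, with 9538, 9402 and 9449.5 in BCP, against 2385, 2530.4 and 2580.4 in UNMs (log2 change 1.90, SE 0.20, adjusted p = 3.5e-07), and the exchanger CAX3 fell (log2 change -1.68, SE 0.28, adjusted p = 0.00014).

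The aquaporins, which are grouped by the membrane they serve, had 3 rises and 8 falls among 24, and the difference between the groups was not tested. None of 10 plasma membrane members (PIP) rose and 4 fell, whereas 3 of 8 vacuolar members (TIP) rose and 2 fell (1 without BCP replicate 2, UNM replicate 1 or UNM replicate 3). PIP1-2 had signals of 172.2, 201.5 and 181.5 in BCP, against 2474, 1813 and 2560.2 in UNMs (log2 change -3.30, SE 0.39, adjusted p = 1.6e-06), and TIP2-2 had 32477, 30898 and 24247 in BCP, against 4521, 3596 and 4370.4 in UNMs (log2 change 2.79, SE 0.22, adjusted p = 4.8e-09). NIP2-2, a silicon channel gene (Lsi6), had 92.1, 207.3 and 53.6 in BCP, against 2068, 1252.5 and 1853 in UNMs (log2 change -3.48, SE 0.42, adjusted p = 2.3e-06). All were without overlap, and those of TIP2-2 and NIP2-2 may read near-identical copies. TIP2-1 rose by 2.28 on the log2 scale, to 441.7, 690.6 and 478.1 in BCP, against 75.2, 84.7 and 50.1 in UNMs, and its mean in TCP was 18674.

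Carriers of nitrogen, metals and phosphate included the widest changes of the transport genes. The ammonium transporter AMT1-1 had signals of 2422, 1468 and 2301 in BCP, against 14175, 14127 and 14252 in UNMs (log2 change -2.78, SE 0.30, adjusted p = 4.1e-07), whereas AMT3-1 had 806, 1083 and 617.4 in BCP, against 72.5, 86.1 and 35.3 in UNMs (log2 change 2.94, SE 0.31, adjusted p = 3.6e-07). Of 20 genes of nitrogen transport and assimilation 4 fell and AMT3-1 alone rose. Of 44 metal transporters 7 rose and 4 fell, beside 8.82% and 13.8% of all genes. Of 14 YSL carriers, a family that includes transporters of metals bound to nicotianamine, 4 rose and none fell (1 without BCP replicate 1). YSL4 had 12788, 14948 and 14909 in BCP, against 283.9, 333.7 and 514.1 in UNMs (log2 change 5.09, SE 0.26, adjusted p = 9.7e-12), and YSL18 had 4253, 4957 and 4366 in BCP, against 315.8, 250.8 and 329.9 in UNMs (log2 change 3.72, SE 0.21, adjusted p = 4.2e-11). VIT1, which loads iron into vacuoles, fell (log2 change -2.79, SE 0.44, adjusted p = 7.3e-05). Among 21 genes of phosphate transport and SPX proteins 2 fell and none rose. PHT1-12, a phosphate transporter, had 25.9, 120.8 and 70.4 in BCP, against 3932, 5265 and 4598 in UNMs (log2 change -5.31, SE 0.36, adjusted p = 4.4e-10), and none of the genes in this paragraph with signals given overlapped.

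Of 6 SCAMP genes, small membrane proteins of secretory vesicles, 5 fell and 1 did not pass (median -1.99). SCAMP3 had signals of 427.7, 501.1 and 479.5 in BCP, against 4609.5, 4323 and 4874 in UNMs (log2 change -3.16, SE 0.37, adjusted p = 1.9e-06), SCAMP5 had 44.8, 77.4 and 78.5 in BCP, against 563, 541.4 and 596.6 in UNMs (log2 change -2.41, SE 0.40, adjusted p = 0.0001), and both were lower on all BCP arrays. SCAMP2 changed by -1.57. SCAMP4 (log2 change -1.29, SE 0.43, adjusted p = 0.039) lost its call without BCP replicate 2 (-1.01), BCP replicate 3 (-1.18), UNM replicate 2 (-1.30) or UNM replicate 3 (-1.10). Over the 20 genes for vesicle coats, tethers and fusion, which include the SCAMP genes, 2 rose and 5 fell, beside 8.82% and 13.8% of all genes. The median was 0.19, all 5 falls were SCAMP genes, and the 2 that rose were VPS9A and RMR2 (1.13 and 1.49). Of 33 genes for actin and actin-binding proteins 5 rose and 9 fell, and ACT7, not among them (-0.96), passed as a fall on a brighter probe set. Of 9 ADF genes, which sever and depolymerise actin filaments, 3 rose and 3 fell, and of 10 formins, which nucleate filaments, 2 fell and none rose. ADF-9 had 12719, 14634 and 12215 in BCP, against 267.7, 548.7 and 389.9 in UNMs (log2 change 4.92, SE 0.28, adjusted p = 4.3e-11), while ADF-4 had 1228, 907.3 and 1199 in BCP, against 7879, 8456 and 8315 in UNMs (log2 change -2.84, SE 0.31, adjusted p = 5.8e-07), on a probe set that may read near-identical copies. Of the villin genes, which bundle filaments, VLN4 rose and VLN5 fell, with VLN4 at 14394.5, 13432 and 13576 in BCP, against 774.4, 866.9 and 862.7 in UNMs (log2 change 3.97, SE 0.32, adjusted p = 7.7e-09) and VLN5 at 129.8, 137.3 and 124.6 in BCP, against 1189.5, 1024 and 1132 in UNMs (log2 change -2.69, SE 0.41, adjusted p = 4e-05). All 4 of these were without overlap. On another probe set VLN5 did not pass (log2 change -0.71, SE 0.33).

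Of 26 MADS-box transcription factors 9 fell (34.6%, beside 13.8% of all genes) and 1 rose (median -0.52). The falls were 7 without BCP replicate 2 or BCP replicate 3, 6 without UNM replicate 1 or UNM replicate 3 and 8 without UNM replicate 2. With an offset of 200 there were 5. MADS45 (MADS7), a floral organ identity factor, had signals of 453, 208.6 and 368.9 in BCP, against 3064, 2368 and 2166 in UNMs (log2 change -2.75, SE 0.28, adjusted p = 1.8e-07), and MADS55 had 464.2, 336.7 and 469.6 in BCP, against 2158, 2066 and 2182 in UNMs (log2 change -2.22, SE 0.28, adjusted p = 4.3e-06). No array overlapped. The rise of MADS4 (log2 change 1.43, SE 0.46, adjusted p = 0.035) was lost without any 1 of the 6 arrays (1.32 to 1.51). In the fits without BCP replicate 3 or UNM replicate 1 the list nonetheless held 1 rise. Of 50 CCCH zinc finger proteins, many of which bind RNA, 4 rose and 11 fell (6 without BCP replicate 2). C3H63 had 5103, 7231 and 5662 in BCP, against 654, 595.8 and 666.8 in UNMs (log2 change 3.12, SE 0.20, adjusted p = 2.8e-10), and C3H4 had 1009, 553.9 and 1001 in BCP, against 7182, 7068 and 7815 in UNMs (log2 change -3.08, SE 0.30, adjusted p = 1.3e-07). Of 49 homeobox genes 2 rose and 4 fell, with HOX2 at 3084, 3825 and 3686 in BCP, against 326.2, 460.3 and 437.1 in UNMs (log2 change 2.97, SE 0.26, adjusted p = 3.1e-08). HAP3, an NF-Y subunit that binds CCAAT boxes, fell, with 537.1, 379.5 and 391.4 in BCP, against 2973, 2411.5 and 2826 in UNMs (log2 change -2.53, SE 0.23, adjusted p = 4.7e-08), and NAC067 rose, with 842.6, 603.6 and 667 in BCP, against 39.5, 79.2 and 71.6 in UNMs (log2 change 2.74, SE 0.51, adjusted p = 0.00043). Each had separate groups.

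A wider view came from 772 probe sets of transcription factors that the study had listed as preferential to pollen. The study chose them on these same arrays, so that they are not independent evidence. Of the 689 tested 75 rose (10.9%) and 69 fell (10.0%), beside 6.11% and 8.19% of all probe sets, with a median of 0.08, and in TCP against BCP 117 rose and 58 fell (10.2% and 12.9% of all probe sets did). Of 22 ABI3VP1 (B3) probe sets 7 rose and 4 fell, of 39 MADS 5 rose and 7 fell, of 41 NAC none rose and 6 fell, of 44 bHLH none rose and 2 fell, of 56 AP2-EREBP 2 rose and none fell, and of 25 homeobox probe sets 3 rose and none fell. A C2H2 zinc finger gene, LOC_Os02g44120, had signals of 4649.5, 6366 and 5691 in BCP, against 163.3, 173.9 and 170.7 in UNMs (log2 change 4.67, SE 0.26, adjusted p = 2.5e-11), and another, LOC_Os11g25610, had 6, 4.9 and 3.2 in BCP, against 936.5, 1723 and 1384 in UNMs (log2 change -4.63, SE 0.22, adjusted p = 3.5e-12). The MADS-box gene LOC_Os06g11970 had 10037, 9075 and 8969 in BCP, against 979.2, 802.3 and 875.5 in UNMs (log2 change 3.33, SE 0.27, adjusted p = 1e-08). These are examples among the largest changes of their families, chosen after their values were seen, and in none did the stages overlap.

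Redox genes changed in about the shares of all genes. Of 37 thioredoxins and glutaredoxins 3 rose (1 without BCP replicate 2, UNM replicate 1 or UNM replicate 3) and 3 fell, and GRXS5, a glutaredoxin gene, had signals of 11776, 13538 and 10703 in BCP, against 1683, 1228 and 1466 in UNMs (log2 change 3.00, SE 0.25, adjusted p = 1.4e-08). Of 31 antioxidant enzymes 3 rose and 4 fell (2 without BCP replicate 2). PRXIIF, a mitochondrial peroxiredoxin, had 4713, 5727 and 5684 in BCP, against 1263, 1760.3 and 1419.9 in UNMs (log2 change 1.83, SE 0.23, adjusted p = 3.6e-06), while APX5, an ascorbate peroxidase gene, had 1421.5, 1467 and 1624 in BCP, against 3964, 4696 and 3942 in UNMs (log2 change -1.45, SE 0.38, adjusted p = 0.0083). The arrays of these 3 genes did not overlap between BCP and UNMs.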

How the data were processed

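The study hybridised labelled RNA to Affymetrix Rice Genome Arrays, and per the submitters' notes the authors made the deposited signal intensity values with GCOS and MAS5, on a linear scale and scaled per array. MAS5 subtracts mismatch signals, which makes low signals noisy, and no detection calls were used here. The values need no aligner or genome build, and arrays have no read depth: their number, 3 per stage, limits the precision.

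The table has 57381 probe sets, and its 123 array controls were set aside. Signals were analysed as log2(signal + 50) for the 47589 probe sets at 100 or more on at least 3 of 24 arrays. limma 3.58.1 in R 4.3.3 (lmFit and eBayes, 1 mean per tissue over 24 arrays) gave the contrast of BCP minus UNM, two-sided, with Benjamini-Hochberg adjustment over all tested probe sets, and likewise TCP minus BCP. The script was tested on simulated data. Python 3.11.15 with pandas 2.3.3, numpy 2.4.6 and matplotlib 3.10.9 made the lists and plots.

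RefSeq names were assigned through the array's probe annotation (22436 probe sets matched 1 gene and 95 several, which were not named). Each gene is represented by the probe set with the highest mean log2 signal over the 6 arrays among those not of the cross-hybridising _x_at type, which were used only where a gene had no other (for 61 list genes an _x_at set passed over was the brightest, and in 8 its call differed: ACT7, GSK1, IAA23, MPK8 and SDH2-1 gained a call on it, and ABCG42, MYB4 and PP2A3 lost one). Of the 1600 list genes 309 had several tested probe sets, 59 of these with different calls, and in 0 did one rise and another fall. The 72 lists were built on RefSeq symbols and names, and 13 genes are in more than 1 list. They replace shorter lists set down earlier. Members and lists were chosen with earlier results of these data known. Named are, per list and direction, up to 3 called genes with the largest change and no overlap between stages, and any member of lists of up to 12. Other genes named were picked after their values were seen. Members of a list were not tested as a set. Alternatives were the offset, the filter, the normalization, the design, the replicate block and each array left out. Promoter sequences and markers of the generative cell were not analysed here.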

Additional observations from a re-analysis of the deposited data

How the results depend on the processing

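The counts of 2910 rises and 3899 falls stayed within 1.5 times in most settings. The exceptions were falls under scaling to the hybridisation controls (6552), and rises and falls under scaling to the 12 poly-A controls (1202 and 1556). The causes were not tested, but the geometric mean of the poly-A controls ran from 233.59 to 761.81 among the BCP arrays. Leaving out 1 array at a time gave 2556 to 2782 rises and 3243 to 3592 falls. Of 296 genes covered by the naming rule or named none changed direction, and the call was lost by 124 under the poly-A scaling, by 52 with an offset of 200 (which lowers the change of dim genes), by 25 under quantile normalization, by 15 under the scaling to hybridisation controls, by 14 with an offset of 16 and by 20 to 27 without 1 array. The median of a list changed sign in 17 of 72 lists under the scaling to hybridisation controls, in 13 on the 6 arrays alone with or without the replicate block, in 11 under the stricter filter (signals of 100 or more on all 3 arrays of a stage), in 3 to 9 without 1 array, and in 0 to 3 under the others.

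The deviations of same-numbered BCP and UNM arrays correlated at 0.108, 0.00813 and 0.111, and those of differently numbered arrays at -0.144 to 0.0699. The main fit took the samples as unpaired, and so few values cannot show whether the replicate numbers pair them. With the replicate block, fitted on the 6 arrays, 3019 probe sets rose and 4199 fell, against 3038 and 4220 on the 6 arrays without it.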
